A study of Drosophila melanogaster with 6 samples.

Results

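Neurons and muscles receive fast chemical signals through ion channels that open when a transmitter binds. The genes described here encode 32 such channels of *Drosophila melanogaster*, of 17698 genes listed in the deposited counts. They were chosen by FlyBase symbol from the known receptors for acetylcholine, GABA, histamine and glutamate together with their pH-gated relatives. All 32 were found. The rule uses no measured value, but earlier results of these data were known when the genes were chosen. The antennal ionotropic receptors (Ir genes), which are related to the glutamate receptors, were left out of the set.

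RNA came from whole antennae of females aged 2 to 5 days, kept at 25 °C, with 350 females of each genotype grown under identical conditions per replicate pair. The comparison asks how RNAi against the ecdysone-induced transcription factor E93 (*Eip93F*) alters antennal expression, with 3 Control and 3 E93RNAi samples, each a pool of animals. Both groups carried peb-Gal4, a driver active in antennal sensory neurons, together with UAS-Dcr2, and so overexpress an enzyme of RNA interference. E93RNAi is the hairpin line UAS-E93KK108140 by the titles, and Control is the landing-site strain VIE-260B, whereas the genotype text of the treatment protocol attaches these the other way round; the titles were followed. In bulk antennae, fewer cells of a type and less RNA per cell cannot be told apart.

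The channels fall into a pair of structural families. The Cys-loop family assembles from several related subunits around a central pore and includes the nicotinic acetylcholine receptors, which pass cations, and channels for GABA, glutamate, histamine or pH, most of which pass chloride. The ionotropic glutamate receptors, which pass cations, comprise AMPA-type, kainate-type and NMDA-type subunits and the GluRII subunits of the fly neuromuscular junction. Olfactory neurons of the fly release acetylcholine in the brain, and their axon terminals receive GABA from local neurons, so some of these receptors serve terminals that lie outside the antenna.

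Sequencing depth was even, with 16639918 to 18400979 reads on genes per sample. At this depth, 3 counts per library, taken as the smallest countable signal, equal 0.163 to 0.182 CPM (counts scaled to library size with TMM factors), and such floors cover counting error only. The targeted gene *Eip93F* had 6070, 6993 and 6875 counts in the Control samples and 5954, 6021 and 5876 in the E93RNAi samples, a log2 ratio of E93RNAi over Control of -0.19 ± 0.048 (SE), with a Benjamini-Hochberg adjusted p = 0.0119 from the quasi-likelihood test of edgeR that is used throughout. Its groups did not overlap in CPM, but hairpin reads cannot be separated from reads of the gene itself. The odorant co-receptor *Orco*, an antenna marker, was abundant in every sample, with means of 3312 ± 53.6 (Control) and 2887 ± 39.9 (E93RNAi) CPM (SD, n = 3). The marker *nompC* was at a lower level, with 7.87 ± 0.775 (Control) and 51.4 ± 5.65 (E93RNAi) CPM (SD, n = 3; log2 ratio 2.70, adjusted p = 1.55e-09, edgeR). Of 6 antenna markers 3 were higher (*nompC*, *Ir8a* and *lush*) and 2 lower (*Orco* and *Ir25a*) in edgeR. The sixth, *Obp83b*, was called with the replicate block (adjusted p = 0.0162, edgeR) and with DESeq2 (adjusted p = 0.0391). None of the 8 neuron markers tested, among them *elav*, *nSyb* and *brp*, passed the threshold in edgeR, DESeq2 or limma voom, 1 had an unadjusted p under 0.05, and 1 (*futsch*) passed with the replicate block (adjusted p = 0.0299, edgeR). None of the 3 hemocyte or 3 fat body markers tested passed in these tools, and none had an unadjusted p under 0.05.

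Of the 32 genes, 17 had enough counts to be tested and 15 did not. With a threshold of 0.05 on the adjusted p, 7 of these 17 differed between the groups, 4 higher and 3 lower in E93RNAi. The share of all tested genes that differed was 24.3%, of which 13.8% of the tested genes were higher and 10.5% lower. The genes that rose were the acetylcholine receptor subunits *nAChRalpha1*, *nAChRalpha3* and *nAChRalpha7* and the NMDA receptor subunit *Nmdar1*. Those that fell were *nAChRalpha5*, the pH-gated chloride channel gene *pHCl-1* and the kainate-type subunit gene *Ekar*. The count carries little weight by itself, because *nAChRalpha1* passed the filter on low counts through E93RNAi alone and *nAChRalpha5* through Control with a single sample of E93RNAi. The genes were also chosen with earlier results of these data known. The median log2 ratio was 0.05 over the 17 tested genes and 0.00032 over all 9237 tested genes. All 3 samples of a group lay beyond all 3 of the other for 5 of the 17 in the upward and 3 in the downward direction, against 37.5% of all tested genes (19.9% upward and 17.6% downward).

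**Figure D1:**
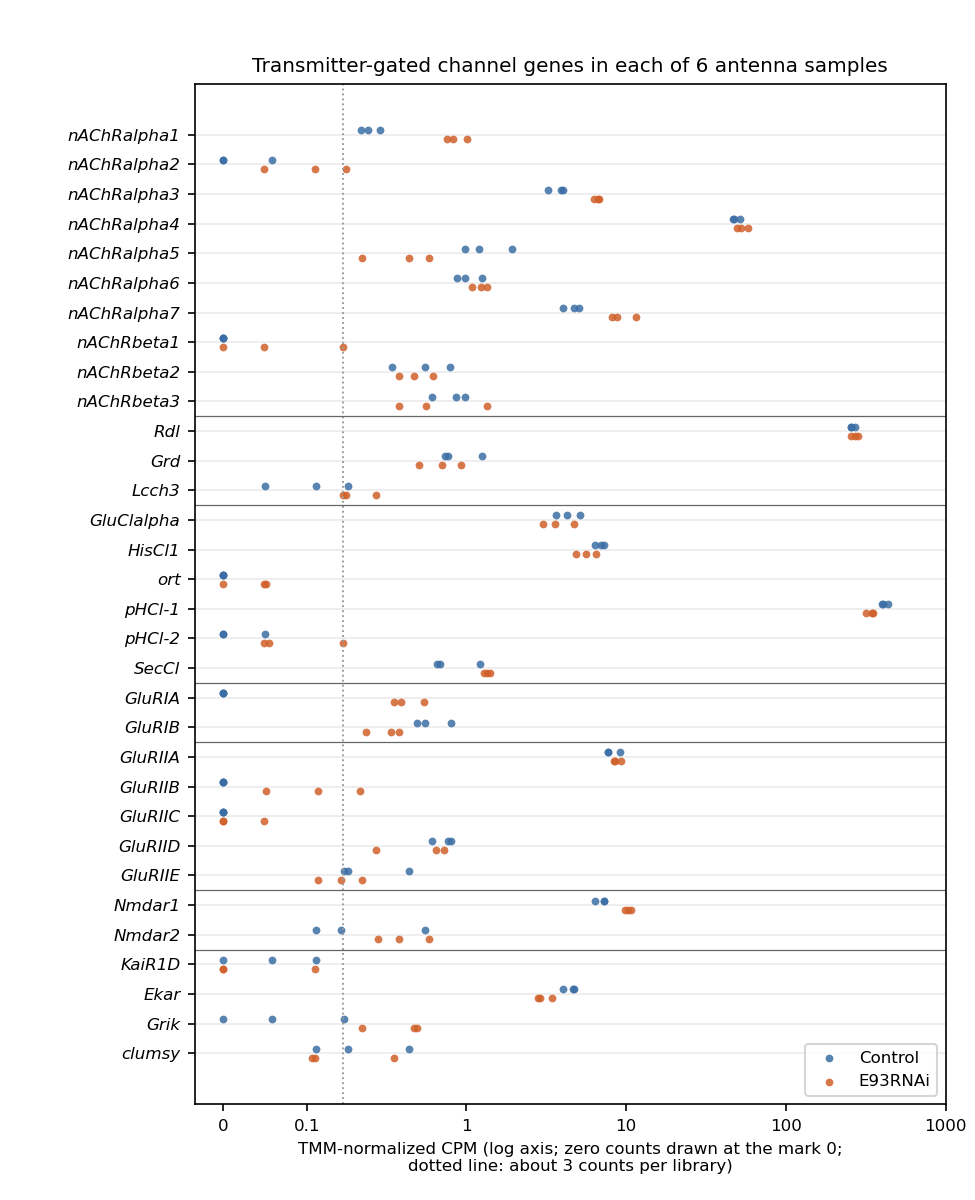
TMM-normalized CPM (log axis) of the 32 channel genes in each Control and E93RNAi sample, 1 point a sample, with genes grouped by class between horizontal lines and zero counts drawn at the mark 0. The points of *pHCl-1* and *Rdl* lie between 254 and 437 CPM, those of *nAChRalpha4* between 46.3 and 57.7 CPM, and 5 genes have no count in any Control sample.

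A pair of chloride channel genes dominated the set. Divided by exon length, the Control level was 49.4 CPM per kb for *pHCl-1* and 29 CPM per kb for *Rdl*, and these genes, singled out after their values were seen, made up 78.6% ± 1.18 of the summed level per kb in Control and 75.1% ± 1.48 in E93RNAi (SD, n = 3). *nAChRalpha4* came next at 7.99 CPM per kb, then *HisCl1* at 3.66 and *GluRIIA* at 2.52 CPM per kb, and the samples of each of these 5 genes lay clear of those of its neighbour in the Control order. *Nmdar1* (1.67 CPM per kb) and *Ekar* (1.49 CPM per kb) followed and overlapped each other. *nAChRalpha7*, *GluClalpha*, *nAChRbeta3*, *SecCl* and *nAChRalpha3* lay between 0.794 and 0.353 CPM per kb, each overlapping the next. The order of the leading pair rests on the length used, as *Rdl* ranked above *pHCl-1* per kb of coding sequence. In E93RNAi the same 3 genes led, *nAChRalpha7* stood above *Ekar* at 1.64 against 1.02 CPM per kb, and *HisCl1* overlapped *GluRIIA*.

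The acetylcholine receptor subunits form the largest class, with 10 genes, of which 7 were tested, 3 rose and 1 fell, where 13.8% of all tested genes rose and 10.5% fell, and 1 of the 3 (*nAChRalpha1*) entered the test through E93RNAi alone. *nAChRalpha4*, a subunit known for promoting sleep in the fly brain, held 78.9% ± 1.81 of the class's summed level per kb in Control and 73.3% ± 2.53 in E93RNAi (SD, n = 3). It had 51.7, 46.3 and 47 CPM in Control replicates 1 to 3 and 57.7, 52.2 and 49.4 CPM in E93RNAi replicates 1 to 3. The groups overlapped, and its log2 ratio was 0.14 with a 95% interval of -0.01 to 0.28 (adjusted p = 0.174, edgeR). The rises were therefore found in subunits of lower level.

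*nAChRalpha7*, a subunit that the fly's giant-fibre escape circuit depends on, had 4.68, 5.08 and 4 CPM in the Control samples and 11.5, 8.71 and 8.18 CPM in the E93RNAi samples. Every E93RNAi sample was above every Control sample. The log2 ratio was 1.04 ± 0.155 (SE), a 2.06-fold rise (adjusted p = 0.000318, edgeR). Its share of the class's level per kb was 7.85% ± 0.914 in Control and 13.6% ± 0.953 in E93RNAi (SD, n = 3). The gene lies on chromosome X from 19327075 to 19348447 on the minus strand (BDGP6) and no other annotated gene overlaps its exons.

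*nAChRalpha3* had 4.01, 3.88 and 3.23 CPM in the Control samples and 6.73, 6.25 and 6.67 CPM in the E93RNAi samples, again with no overlap. It rose 1.77-fold (log2 ratio 0.82 ± 0.139 SE, adjusted p = 0.000812, edgeR). It lies on X from 8276200 to 8367169 on the minus strand (BDGP6), and 2.39% of its exon length overlaps *CG1636* on the opposite strand, which had a log2 ratio of -0.03 (adjusted p = 0.641, edgeR).

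*nAChRalpha1* and *nAChRalpha5* moved in opposite directions at levels near the limit of the test. *nAChRalpha1*, a subunit bound by neonicotinoid insecticides, had 4, 5 and 4 counts in the Control samples and 14, 18 and 14 in the E93RNAi samples, a log2 ratio of 1.76 ± 0.365 (SE; adjusted p = 0.00336, edgeR). *nAChRalpha5*, one of the subunits that bind the snake toxin alpha-bungarotoxin, had 16, 34 and 22 counts in the Control samples and 10, 4 and 8 in the E93RNAi samples, a log2 ratio of -1.72 ± 0.395 (SE; adjusted p = 0.00648, edgeR). Neither pair of groups overlapped, which also held for 37.5% of all tested genes. *nAChRalpha1* passed the filter on low counts through E93RNAi alone, and *nAChRalpha5* through Control with 1 sample of E93RNAi. Each thus entered the test through the group where it was higher, and its separation adds no support.

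*nAChRalpha6*, the target of the spinosyn insecticides, had 16 to 22 counts in Control and 20 to 23 in E93RNAi, and its log2 ratio of 0.23 had a 95% interval of -0.34 to 0.81 (adjusted p = 0.595, edgeR). The beta subunits were at low levels throughout. *nAChRbeta1*, a subunit of many nicotinic receptors in the fly brain, had no count in Control and 0, 3 and 1 counts in E93RNAi. *nAChRbeta2* had 6 to 13 counts in Control and 7 to 11 in E93RNAi and was not tested. *nAChRalpha2* had at most 3 counts in any sample, so that both groups were at or under the floor and no fold is given for it or for *nAChRbeta1*.

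*nAChRbeta3* had 10, 15 and 18 counts in the Control samples and 23, 10 and 7 in the E93RNAi samples (log2 ratio -0.13, 95% interval -1.07 to 0.82, adjusted p = 0.877, edgeR). Its exons lie wholly on exons of *Ets21C*, a transcription factor gene on the opposite strand, whose level was 28.1 ± 1.39 CPM without and 51.1 ± 3.27 CPM with the knockdown (SD, n = 3; log2 ratio 0.86, adjusted p = 8.41e-07, edgeR). The library kit keeps strand, per the labels, but the strand setting and annotation release of the counting are not given in the sources used here. With the exons used here, reads on *nAChRbeta3* could not be assigned unless strand was used, whereas it had 10 to 18 counts in Control. The part of misassigned *Ets21C* reads in the *nAChRbeta3* count was not tested, so that count stays uncertain.

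**Figure D2:**
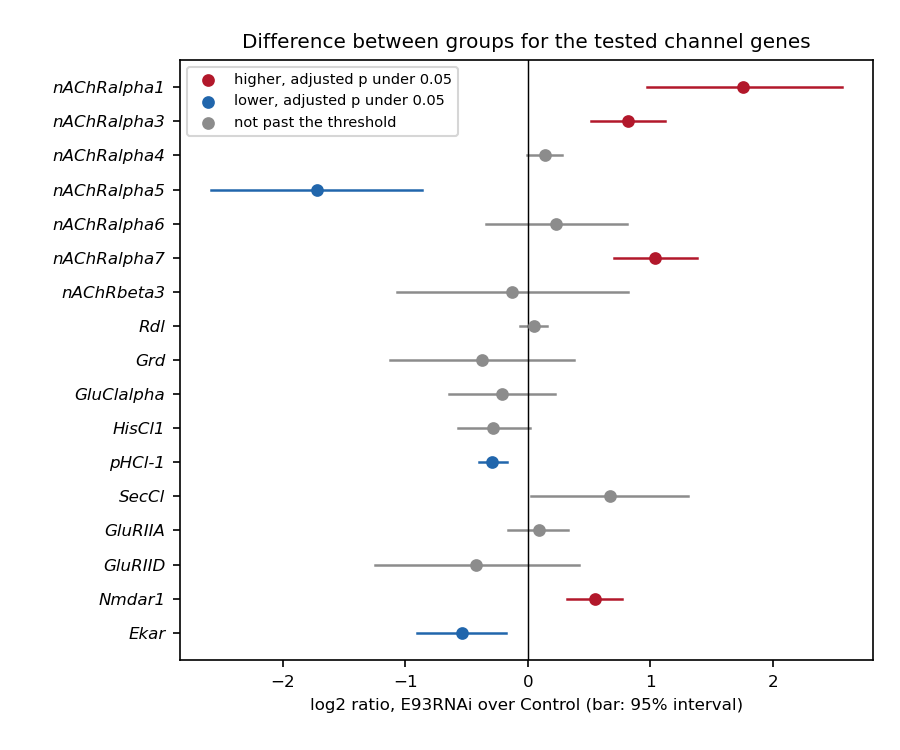
Log2 ratio of E93RNAi over Control for the 17 tested channel genes, with the 95% interval from edgeR's quasi-likelihood fit as a bar and colour for an adjusted p under 0.05. Intervals are narrow for *Rdl* and *pHCl-1* and wide for genes near the filter such as *nAChRalpha1* and *nAChRalpha5*.

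Among the GABA-gated channels, *Rdl*, the main GABA receptor of the fly nervous system and the target of dieldrin, did not pass the threshold. It had 4200, 4766 and 4661 counts in the Control samples and 4627, 5092 and 4682 in the E93RNAi samples, or 255, 272 and 255 CPM against 271, 284 and 254 CPM. The groups overlapped, and the log2 ratio of 0.05 had a 95% interval of -0.06 to 0.16 (adjusted p = 0.57, edgeR). *Rdl* held 99% ± 0.223 of the summed level per kb of its class in Control and 99.1% ± 0.319 in E93RNAi (SD, n = 3). *Grd*, which forms a cation channel with *Lcch3* in expressed cells, had 12 to 22 counts in Control and 9 to 17 in E93RNAi (log2 ratio -0.37, adjusted p = 0.51, edgeR). *Lcch3* had 3, 2 and 1 counts in the Control samples and 3, 3 and 5 in the E93RNAi samples, a ratio of 1.79 with a 95% counting interval of 0.607 to 5.9. The exons of both low genes overlap genes of the opposite strand over 27.46% (*Grd*) and 23.96% (*Lcch3*) of their length.

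*pHCl-1*, a chloride channel opened by alkaline pH outside the cell, was the most abundant gene of the set per kb of exon and fell. It had 399, 437 and 402 CPM in Control replicates 1 to 3 and 350, 347 and 317 CPM in E93RNAi replicates 1 to 3. All E93RNAi samples were below all Control samples. The log2 ratio was -0.29 ± 0.053 (SE), with a 95% interval of -0.40 to -0.17 (adjusted p = 0.00137, edgeR). The gene lies on arm 3L from 15848578 to 15899029 on the minus strand (BDGP6) with no overlapping exons. The mean level went from 413 ± 21.3 to 338 ± 18.1 CPM (SD, n = 3), a 1.22-fold fall.

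The other channels of this class were at lower levels and did not pass the threshold. *HisCl1*, a histamine-gated chloride channel known from the visual system, had 7.24, 6.34 and 6.96 CPM in the Control samples and 6.44, 4.86 and 5.64 CPM in the E93RNAi samples, with overlapping groups (log2 ratio -0.28, 95% interval -0.57 to 0.02, adjusted p = 0.176, edgeR). Its relative *ort*, the histamine receptor of the neurons that follow photoreceptors, had no count in the Control samples and 0, 1 and 1 in the E93RNAi samples. *GluClalpha*, the glutamate-gated chloride channel that ivermectin opens, had 64 to 85 counts in Control and 54 to 81 in E93RNAi (log2 ratio -0.21, adjusted p = 0.516, edgeR).

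*SecCl* and *pHCl-2* are best known from the renal tubules. *SecCl* had 20, 12 and 12 counts in the Control samples and 23, 23 and 26 in the E93RNAi samples. The groups did not overlap in CPM, but its log2 ratio of 0.67 ± 0.294 (SE) did not pass the threshold (adjusted p = 0.132, edgeR), and of the alternatives run it passed only without Control replicate 1 (adjusted p = 0.0403, edgeR). *pHCl-2* had at most 3 counts in any sample.

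Among the glutamate-gated cation channels, *Nmdar1* rose and *Ekar* fell. *Nmdar1*, the subunit that every NMDA receptor needs, had 6.38, 7.25 and 7.28 CPM in the Control samples and 10.2, 9.77 and 10.7 CPM in the E93RNAi samples. Every E93RNAi sample was above every Control sample. The log2 ratio was 0.55 ± 0.104 (SE; 1.46-fold, adjusted p = 0.00184, edgeR). The gene lies on arm 3R from 5508842 to 5523328 on the minus strand (BDGP6). Its partner subunit *Nmdar2* was near the floor, with 9, 2 and 3 counts in the Control samples and 10, 5 and 7 in the E93RNAi samples, and *Nmdar1* made up 97.9% of the summed level per kb of the pair in both groups.

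*Ekar*, a kainate-type subunit described in photoreceptors, had 4.62, 4.68 and 4 CPM in the Control samples and 2.81, 2.9 and 3.41 CPM in the E93RNAi samples, with no overlap. Its log2 ratio was -0.54 ± 0.164 (SE; adjusted p = 0.0306, edgeR). This call is the least stable of the 7. It was lost with DESeq2 (adjusted p = 0.088) and in 4 of the 6 fits that left out a sample, namely without Control replicate 1 (adjusted p = 0.0825), Control replicate 2 (0.0987), E93RNAi replicate 1 (0.0679) or E93RNAi replicate 2 (0.0827, all edgeR). The gene lies on chromosome 4 from 636131 to 646556 on the minus strand (BDGP6). Of 9 photoreceptor markers 5 were tested, of which *ninaC*, *trp* and *Rh4* were higher and *norpA* lower in E93RNAi, with a summed level of the 9 of 329 to 358 CPM in Control and 289 to 311 CPM in E93RNAi. Most of that sum was *norpA*, with means of 339 and 286 CPM, while the log2 ratios of *ninaC* and *trp* were 1.16 and 0.75. The opsin *ninaE* had at most 5 counts in any sample, whereas the opsin *Rh4* had 1, 2 and 1 counts in the Control samples and 18, 11 and 14 in the E93RNAi samples, and entered the test through E93RNAi alone. The part of these markers in the *Ekar* result was not tested.

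*GluRIIA*, a subunit of the neuromuscular glutamate receptor, had the highest Control level per kb of the ionotropic glutamate receptor genes listed here. It had 7.72, 7.71 and 9.2 CPM in the Control samples and 8.37, 8.49 and 9.32 CPM in the E93RNAi samples (log2 ratio 0.09, 95% interval -0.16 to 0.33, adjusted p = 0.648, edgeR). The subunits it assembles with in muscle were lower, between 0 and 0.235 CPM per kb in Control against 2.52 for *GluRIIA*. *GluRIIC*, which the muscle receptor requires, had a single count over all 6 samples, *GluRIIE* had 2 to 8 counts a sample, and *GluRIID* had 5 to 14 counts a sample (log2 ratio -0.42, adjusted p = 0.502, edgeR). *GluRIIB*, which takes the place of *GluRIIA* in a second form of the receptor, had no count in the Control samples and 2, 1 and 4 in the E93RNAi samples, at or near the floor.

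Several markers of muscle, but not all, stood apart in E93RNAi replicates 1 and 3. The summed level of 8 muscle markers was 11.1 to 13.3 CPM in Control, 39.3 and 36.8 CPM in E93RNAi replicates 1 and 3 and 12.7 CPM in E93RNAi replicate 2. *bt* had the highest Control mean of them at 4.51 CPM, and *Mhc*, with a Control mean of 1.64 CPM, had 12, 1.23 and 12 CPM in the E93RNAi samples. *Tm2* was even across these samples, with 3.57, 3.69 and 3.96 CPM against a Control mean of 1.82 CPM. *TpnC4* had means of 2.81 CPM in Control and 2.89 CPM in E93RNAi (log2 ratio 0.04, adjusted p = 0.907, edgeR). Of the 5 tested, *Mhc*, *bt* and *Tm2* were higher in edgeR, *Tm2* alone with DESeq2 and limma voom, *Mlc2* was added with the replicate block (adjusted p = 0.043, edgeR), and the flight muscle actin *Act88F* had at most 2 counts in any sample. *GluRIIA* had 8.37, 8.49 and 9.32 CPM in E93RNAi replicates 1 to 3, and the part of muscle in its level was not tested.

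Of the 15 genes with too few counts for the main test, only the AMPA-type genes, *Grik* and *GluRIIB* (given above) did not overlap between the groups. Among all tested genes, which passed the filter on counts, 37.5% did not overlap. How often genes with so few counts do so was not determined. *GluRIA* had no count in any Control sample, whereas the E93RNAi samples held 6, 7 and 10. Their mean CPM was 2.48-fold above the Control floor of 3 counts per library, a ratio that leaves out counting error in the E93RNAi samples. *GluRIB*, the other AMPA-type gene, had 9, 14 and 9 counts in the Control samples and 4, 6 and 7 in the E93RNAi samples, a ratio of 0.519 with a 95% counting interval of 0.27 to 0.963. *Grik*, a kainate-type gene, had 1, 3 and 0 counts in the Control samples and 8, 4 and 9 in the E93RNAi samples, a ratio of 5.13 with a 95% counting interval of 1.73 to 20.6. With no filter on low counts, *GluRIA* (adjusted p = 0.000375) and *Grik* (adjusted p = 0.0409) were called in edgeR. *GluRIB* (adjusted p = 0.222) and *GluRIIB* (adjusted p = 0.0853) were not called in that edgeR fit. In that fit 9.96% of 13680 genes were higher and 7.55% lower, 17.5% in all. The intervals cover counting error only.

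The remaining kainate-type genes were near the floor. *KaiR1D*, which acts at presynaptic terminals of motor neurons, had at most 2 counts in any sample, and *clumsy* had 2 to 8 counts in Control and 2 to 6 in E93RNAi. In all, 19 of the 32 genes had a mean under 1 CPM in both groups. The 10 genes above 3 CPM in Control varied by 3.74% to 17.4% between Control samples and 3.95% to 23.3% between E93RNAi samples (coefficient of variation, n = 3).

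**Figure D3:**
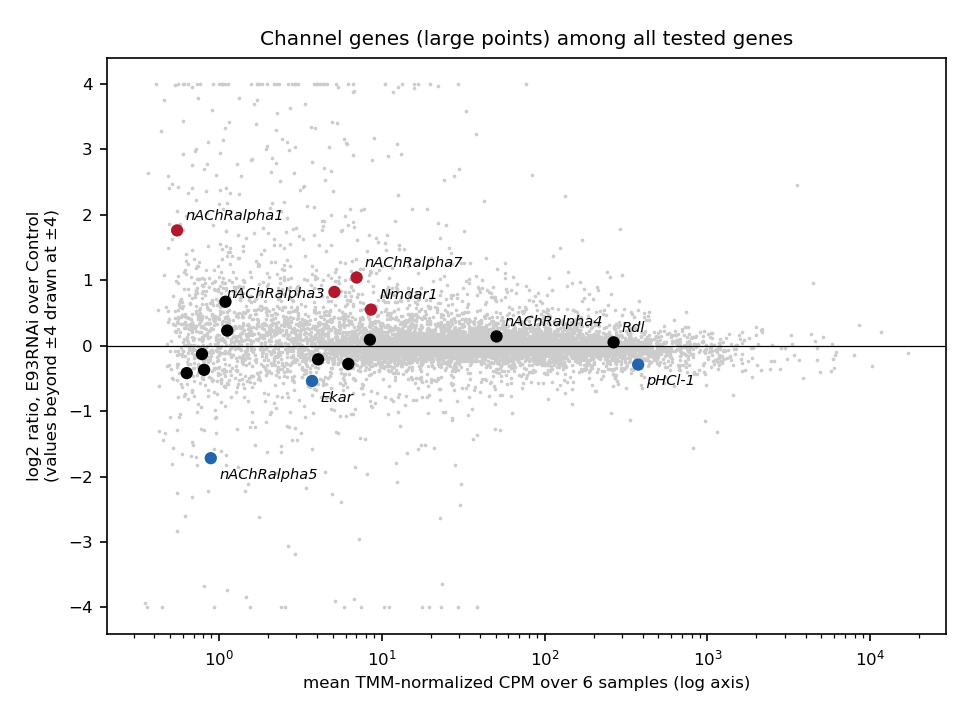
Log2 ratio of E93RNAi over Control against the mean TMM-normalized CPM over 6 samples (log axis) for all 9237 tested genes (grey) and the 17 tested channel genes (large points, red higher and blue lower at an adjusted p under 0.05, black not past the threshold). Among the called channel genes *pHCl-1* stands alone at a high level, with a Control mean of 413 CPM. The others have means of at most 10.2 CPM in either group, down to *nAChRalpha1* under 1 CPM. *nAChRalpha4* and *Rdl*, with Control means of 48.4 and 261 CPM, were not called.

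Several channel genes lie close together in the genome. *nAChRalpha1*, *nAChRalpha2* and *nAChRbeta2* follow each other on arm 3R with gaps of 28.3 and 18.1 kb, and of these *nAChRalpha1* was the only one with enough counts to be tested. *GluRIIA* and *GluRIIB* lie 347 bases apart on the same strand of arm 2L, with Control levels of 2.52 and 0 CPM per kb. *KaiR1D* and *Grik* are 35.7 kb apart on arm 3R. On arm 3L, *GluRIB* lies 69.8 kb from *Rdl*, with Control levels of 0.0853 and 29 CPM per kb. *GluRIID* and *GluRIIE* share 122 bases of exon on the same strand, where reads cannot be assigned to either.

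Genes that act with these channels were compared in the same fit, from lists made with earlier results of these data known. Of 11 genes for accessory, clustering and assembly proteins, 10 were tested, and 2 rose and 1 fell, a share near the 24.3% called over all tested genes. *Grip*, which encodes a PDZ-domain protein, rose (log2 ratio 0.82 ± 0.106 SE, adjusted p = 9.58e-05, edgeR), as did the adaptor gene *X11Lbeta* (log2 ratio 0.28, adjusted p = 0.00243). *qvr*, also called *sleepless*, encodes a membrane-anchored protein that acts on potassium channels and on nicotinic receptors, and it fell, with 264 ± 5.97 CPM in the Control and 213 ± 10.9 CPM in the E93RNAi samples (SD, n = 3; log2 ratio -0.31, adjusted p = 0.000362, edgeR). The receptor chaperone gene *RIC-3* (adjusted p = 0.498) and the synaptic scaffold gene *dlg1* (adjusted p = 0.998) did not pass the threshold. *Neto*, the auxiliary subunit of the neuromuscular receptor, had 8 to 18 counts in Control and 13 to 23 in E93RNAi (adjusted p = 0.378, edgeR). The median log2 ratio of the 10 tested genes was 0.08.

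Of 16 genes for making, loading and clearing the same transmitters, 14 were tested, 2 rose and 6 fell, with a median log2 ratio of -0.19, where 13.8% of all tested genes rose and 10.5% fell. With the replicate block 9 were called, *CarT* being added (adjusted p = 0.0282, edgeR). Genes of acetylcholine release, named after their values were seen, were among those that fell, *ChAT* (the synthesis enzyme) by 0.16, *VAChT* (the vesicle transporter) by 0.21 and *ChT* (choline uptake) by 0.36 on the log2 scale (adjusted p = 0.00974, 0.00559 and 4.04e-05, edgeR). *ChAT* and *VAChT* share 606 bases of exon on the same strand, and 69.48% of the exon length of *ChT* lies on exons of *CG46318* on the same strand, so these counts are uncertain to that extent. *Ace*, which breaks acetylcholine down, had a log2 ratio of -0.08 (adjusted p = 0.35, edgeR). *Gat*, the GABA transporter gene, fell as well, with 84.8 ± 0.673 CPM in the Control and 62.7 ± 3.47 CPM in the E93RNAi samples (SD, n = 3; log2 ratio -0.44, adjusted p = 2.76e-05, edgeR). *e* and *t*, enzymes that couple histamine to beta-alanine and release it again, moved in opposite directions, with log2 ratios of 1.98 for *e* and -0.59 for *t* (adjusted p = 4.3e-05 and 0.000198, edgeR). *Eaat1*, a glutamate transporter gene, rose (log2 ratio 0.67, adjusted p = 0.00234, edgeR). The synthesis enzyme of GABA, *Gad1*, and the vesicle transporter of glutamate, *VGlut*, had at most 1 and 5 counts in any sample.

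Of 7 metabotropic receptors for the same transmitters, which signal through G proteins, 6 were tested, 1 rose and 3 fell, with a median log2 ratio of -0.15, beside 13.8% higher and 10.5% lower over all tested genes. The muscarinic receptors *mAChR-A* and *mAChR-B* fell by 0.27 and 0.30 on the log2 scale (adjusted p = 0.00974 and 0.00242, edgeR). *GABA-B-R3* fell by 0.78 (adjusted p = 0.00648) and *mGluR*, the metabotropic glutamate receptor, rose (log2 ratio 1.04, adjusted p = 0.0114, edgeR). *GABA-B-R1* and *GABA-B-R2*, which pair to form the GABA-B receptor, had log2 ratios of -0.01 and -0.03 (adjusted p = 0.893 and 0.726, edgeR), beside 0.05 for *Rdl*. Of 3 further Cys-loop genes, *alka*, which encodes a chloride channel for the taste of high pH, had 313 ± 17.7 CPM in the Control and 342 ± 14.6 CPM in the E93RNAi samples (SD, n = 3; log2 ratio 0.13, adjusted p = 0.102, edgeR), and *CG8916* and *CG6927* had at most 1 count in any sample. Per kb of exon, *alka* stood at 108 CPM per kb in Control, above *pHCl-1* (49.4) and *Rdl* (29), the leading genes of the channel set.

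**Figure D4:**
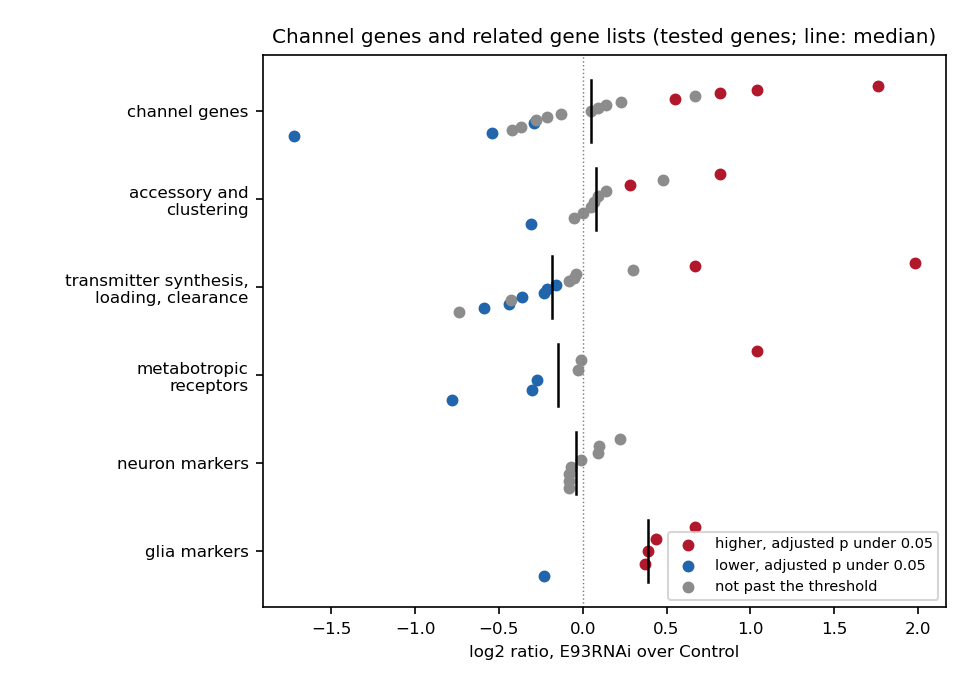
Log2 ratio of E93RNAi over Control for each tested gene of the channel set and of 5 related lists, with the median as a vertical line, red for higher and blue for lower at an adjusted p under 0.05. Medians lie at 0.05 for the channel genes, 0.08 for accessory genes, -0.19 for transmitter handling, -0.15 for metabotropic receptors, -0.04 for neuron markers and 0.39 for glia markers.

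Markers of glia, which also carry transmitter receptors and transporters, differed between the groups, but not all in the same direction. All 5 tested glia markers were called in edgeR, beside 24.3% of all tested genes. *repo*, *moody*, *nrv2* and *Eaat1* were higher and *Gs2* lower, and their log2 ratios were 0.39, 0.37, 0.44, 0.67 and -0.23. Their summed level, which *Gs2* dominates, was 3186 to 3290 CPM in Control and 2942 to 3037 CPM in E93RNAi. The neuron markers had a summed level of 4222 to 4673 CPM in Control and 4061 to 4628 CPM in E93RNAi. Neither the part of glia nor that of muscle in the changes of the channel genes was tested.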

How the data were processed

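RNA of whole antennae was sequenced from 3 Control and 3 E93RNAi samples, with poly(A) selection and a strand-keeping kit from 100 ng of total RNA, per the labels' protocols. The authors deposited unnormalized counts of reads per gene in a file for each sample. The submitters' processing notes name cutadapt 1.8, STAR 2.5.3a, HTSeq 0.9.1 and the build BDGP6, while settings and annotation release are not given in the sources used here. Reads on the 5 summary lines, 13.053% to 13.822% of each file, were left out.

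Symbols were matched for 17560 of 17698 gene IDs. Genes kept by filterByExpr (9237) were scaled by TMM and tested with edgeR 4.0.16 (R 4.3.3; limma 3.58.1; DESeq2 1.42.0) on the group alone, with Benjamini-Hochberg adjustment over all tested genes and a threshold of 0.05. Exon lengths, positions and overlaps came from the Ensembl release for BDGP6.54, matched by gene ID. Counting intervals are exact (Clopper-Pearson) at 95%. Of 138 genes lying wholly on exons of the other strand, 35 had at least 60 counts over all samples. The fits were tested on simulated data.

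The protocol speaks of pairs of replicates grown under identical conditions without saying which samples form a pair, and same-numbered samples were taken as pairs. Their deviations from group means correlated at 0.0995, 0.0188 and 0.112 across 9237 genes, beside -0.108 to 0.0156 for differently numbered samples. Deviations within a group of 3 offset each other, so these values do not settle the pairing. The fit with the replicate block is an alternative, beside other scalings, tools, filters, thresholds and leaving out each sample. Beyond these pairs of biological replicates, the labels do not say that the samples came from separate cultures, so p-values measure the spread between these samples. The 32 genes are all named, and the rule names up to 4 called genes from each related list, largest changes first, and the markers of the cell type lists. Others were named after their values were seen. The genes and lists were chosen with earlier results of these data known.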

Additional observations from a re-analysis of the deposited data

How the results depend on the processing

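Of the 32 channel genes, 7 were called in edgeR, and the count was 6 to 9 over all alternatives and 6 to 7 when samples were left out singly, with 4 to 5 higher and 2 to 3 lower. The 4 scalings and limma voom called the same 7 genes, as did the replicate block, which changed no call among the channel genes. *Ekar* lost its call with DESeq2, at an adjusted p-value under 0.01 and in 4 fits that left out a sample; *nAChRalpha1* was not tested under a mean of at least 10 counts. Without a filter *GluRIA* and *Grik* were added. Of 237 values of the 17 tested genes under 14 alternatives, 231 kept their side of the threshold, 5 lost a call (all *Ekar*), 1 gained a call (*SecCl*), and none reversed, while 3 values without a call changed sign. Over all genes, 2248 were called, 1711 to 2155 when each sample was left out, 2431 with the replicate block and 1482 at an adjusted p-value under 0.01, where fewer genes follow from the stricter threshold. Lengths taken from RefSeq proteins were not run, and coding length from the annotation, chosen after seeing the data, exchanged *pHCl-1* and *Rdl* at the top of the order. The 15 genes left out by the filter had few or no counts at this depth, and of them *GluRIA* and *Grik* alone were called without it. Whether greater depth would detect the others was not tested.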
